A study of Homo sapiens with 4 samples.

Results

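The cyclin-dependent kinases and the CDC25 phosphatases, which switch on CDK1 and CDK2, were followed in liver cancer cells after silencing of CDCA8, the gene of borealin, a subunit of the chromosomal passenger complex of mitosis. The set holds 10 genes named by symbol, 7 kinases (CDK1, CDK2, CDK4, CDK6, CDK7, CDK8 and CDK14) and 3 phosphatases (CDC25A, CDC25B and CDC25C), out of 18398 features in each library. Their names were given with earlier results of these data known, each had 1 row, and all 10 passed the filters on low values described below.

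Huh1 and Huh7 are long-established cell lines from human hepatocellular carcinoma, and their total RNA was sequenced after transfection with a negative control siRNA (NCsiRNA) or with an siRNA against CDCA8 (CDCA8siRNA). Per the study, the siRNA was given at 15 nM for 48 h, and the CDCA8siRNA was the variant called CDCA8-1siRNA. There were 4 libraries, Huh1 NCsiRNA, Huh1 CDCA8siRNA, Huh7 NCsiRNA and Huh7 CDCA8siRNA, with 1 library per condition and no replicate. Loss of CDCA8 and any other action of that 1 siRNA cannot be told apart in this design.

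A cyclin-dependent kinase is active only when bound to its cyclin. CDK1 and CDK2 are fully active only after inhibitory phosphates in the ATP pocket have been taken off by a CDC25 phosphatase. CDK4 and CDK6 with D cyclins act in G1, CDK2 with cyclins E and A at the start of and through S phase, and CDK1 with cyclins A and B at entry into mitosis. CDK7 phosphorylates the activating loop of CDK1, CDK2, CDK4 and CDK6 and belongs to the transcription factor TFIIH, CDK8 belongs to the kinase module of Mediator, and CDK14 works with cyclin Y at the cell membrane. These activities are set largely by protein partners, phosphorylation and degradation, none of which mRNA levels show.

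Values are RPKM, which divide the reads of a transcript by its length and by the total of the library, between 12197606 and 13384836 reads here. CDCA8 itself had 24.1 RPKM in Huh1 NCsiRNA and 5.86 in Huh1 CDCA8siRNA, 24.3% of the control. In Huh7 it had 51.5 and 7.36 RPKM, 14.3% of the control. The 12 markers of hepatocytes were all at or above 1 RPKM in every library, and of 6 markers of blood, vessel and stroma cells 1 reached that level in each Huh1 library, 3 in Huh7 NCsiRNA and 4 in Huh7 CDCA8siRNA. CD68, a lysosomal protein used as a macrophage marker, was at 23.3 and 16.5 RPKM in Huh1 and at 3.71 and 3.73 in Huh7, while PTPRC and VWF, which define blood and vessel cells, were at or below 0.417 RPKM in all 4. COL1A1, a collagen of stromal cells, was at 107 and 125 RPKM in the Huh7 libraries and at 0.115 and 0.122 in those of Huh1. In bulk RNA of this kind, fewer cells of a cell cycle phase and less RNA per cell cannot be told apart.

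The order of the levels was led by CDK4, which was the highest of the 10 genes in all 4 libraries. CDK4 had 136 RPKM in Huh1 NCsiRNA, 139 in Huh1 CDCA8siRNA, 102 in Huh7 NCsiRNA and 101 in Huh7 CDCA8siRNA. Between 456 and 677 of all features had a higher value in the same library. The lowest was CDC25C in 3 of the libraries and CDK14 in Huh7 NCsiRNA, and the highest member exceeded the lowest 20.1-fold, 24.8-fold, 19.4-fold and 11.4-fold in the order of libraries given above. RPKM is per transcript length, so different genes can be set side by side only as far as the lengths used fit the transcripts present. The lengths that the authors used are not known. With 1 library per condition, neighbours in the order also have no measured spread, such as CDK2 at 33.3 and CDK7 at 32.5 RPKM in Huh1 NCsiRNA.

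**Figure D1:**
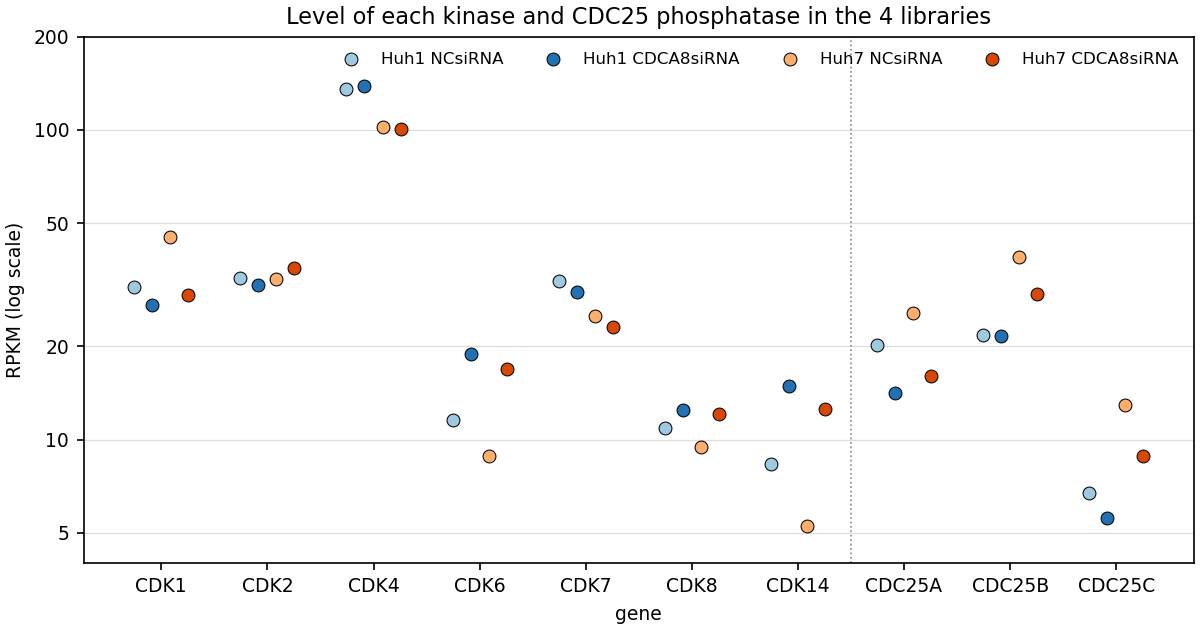
RPKM (log axis) of each of the 7 kinases and, right of the dotted line, the 3 CDC25 phosphatases, with 1 point per library coloured by cell line and siRNA. CDK4 sits at 100.8 RPKM or higher in all 4 libraries, the dark CDCA8siRNA points of CDK6, CDK14 and CDK8 lie above both control points, and those of CDC25A and CDK1 lie below both. CDK8 and CDK1 did not pass the limma test described below. The share of all features whose libraries separate in this way was not counted.

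Fold changes with CDCA8siRNA were computed within a cell line as the difference of log2(RPKM + 1), over features that reached 1 RPKM in either of its libraries. Because 1 is added, they are somewhat smaller than the plain RPKM ratios, mostly for low genes. The SD given with them is what the counting of reads alone would give, from approximate read numbers of 157 to 3806 behind a value, and it holds no variation between cultures. A change of 2-fold, the threshold used in the study, was reached by 0 of the 10 genes in Huh1, where 0.32% of 10940 features were higher and 0.174% lower by that much. In Huh7 it was reached by 1 of the 10, CDK14, where the background was 0.873% of 11565 features higher and 0.7% lower. Over the 10 genes the median log2 fold change was -0.04 in Huh1 and -0.07 in Huh7, beside 0.02 and 0.03 over all features.

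To use all 4 libraries, limma was fitted to 10357 features with the cell line as a covariate. That fit has 1 residual degree of freedom, which measures how alike the response was in Huh1 and Huh7 and not the spread between cultures, and it borrows the rest of its precision from the other features. By limma with Benjamini-Hochberg adjustment over all features, 2 of the 10 genes, CDK14 and CDK6, rose and 1, CDC25A, fell at an adjusted p under 0.05. Of all features 6.03% passed as higher and 4.21% as lower. With an unadjusted p under 0.05 there were 6 of the 10, beside 26.0% of all features. The median over the 10 genes was -0.05 on the log2 scale and 0.03 over all features fitted. By sign alone, 3 genes were higher with CDCA8siRNA in both cell lines, 5 were lower in both, and CDK2 and CDK4 had opposite signs. The sign of CDC25B, among the 5, lay within its counting SD in Huh1 (-0.007 ± 0.065). That of CDK4 did so in Huh7 (-0.018 ± 0.04). How all features divide by sign was not counted, so this division cannot be called particular to the 10 genes.

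**Figure D2:**
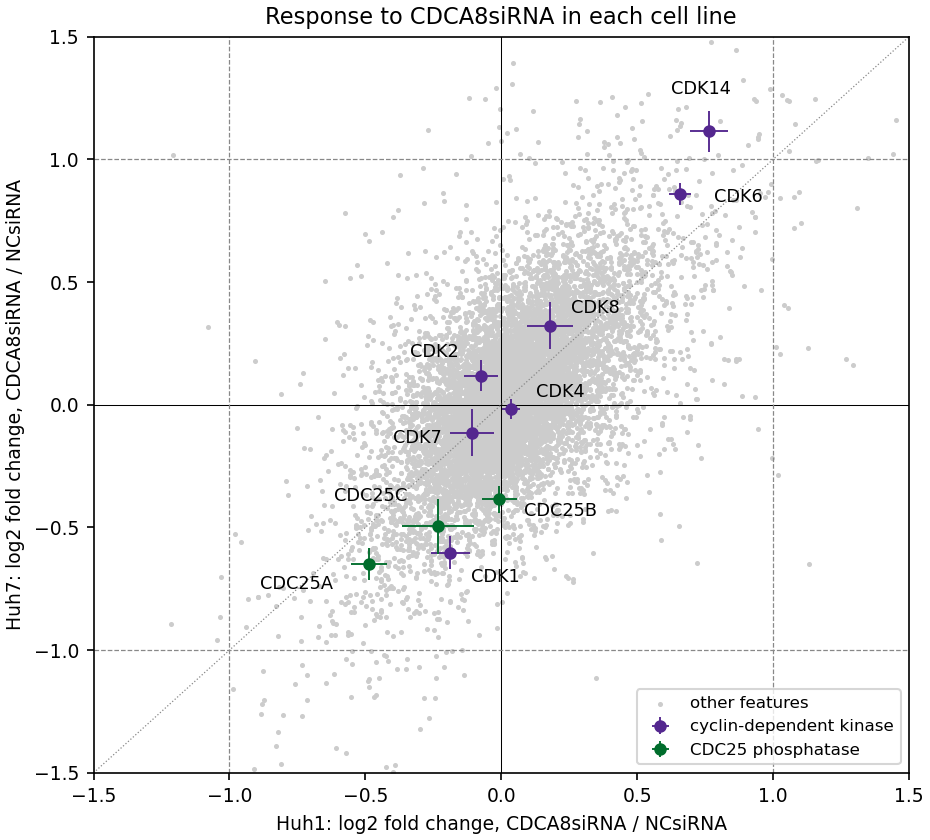
Log2 fold change with CDCA8siRNA in Huh1 (horizontal) against Huh7 (vertical) for the 7 kinases (purple), the 3 CDC25 phosphatases (green) and the other features (grey), with bars of 1 SD from read counting; dashed lines mark 2-fold, the dotted line marks equal change, and features beyond the axes are not drawn. CDK14 (0.76 and 1.11) and CDK6 (0.66 and 0.86) stand at the upper right, CDC25A (-0.49 and -0.65) at the lower left, and CDK4 (0.03 and -0.02) at the centre.

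Of the D-cyclin kinases, CDK6 passed the test and CDK4 did not. CDK6, which phosphorylates the retinoblastoma protein in G1, had 11.6 RPKM in Huh1 NCsiRNA, 18.9 in Huh1 CDCA8siRNA, 8.85 in Huh7 NCsiRNA and 16.9 in Huh7 CDCA8siRNA. Both libraries with CDCA8siRNA lay above both controls. How many of all features separate like this was not counted, for CDK6 or for the genes below, so it is description only. The ratio was 1.63 in Huh1 and 1.91 in Huh7, the log2 fold changes were 0.66 ± 0.04 and 0.86 ± 0.05 (counting SD), and 186 features in Huh1 and 173 in Huh7 rose more. In limma the log2 change of CDK6 was 0.76 (SE 0.11, 95% confidence interval 0.52 to 1.00, Benjamini-Hochberg adjusted p = 0.00452).

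CDK4 is its close relative with the same cyclin partners and substrate. Its log2 fold change was 0.03 ± 0.03 in Huh1 and -0.02 ± 0.04 in Huh7 (counting SD), and in limma it was 0.01 (SE 0.08, 95% confidence interval -0.17 to 0.19, adjusted p = 0.958). CDK4 was by far the higher of the pair, and their sum was 147 and 158 RPKM in the Huh1 libraries and 111 and 118 in those of Huh7. The ratio of CDK4 to CDK6 within a library, which a constant factor per library does not change, was 11.7 with NCsiRNA and 7.35 with CDCA8siRNA in Huh1, and 11.5 and 5.98 in Huh7. CDK6 accordingly made up 7.89% of their sum in Huh1 NCsiRNA and 12% in Huh1 CDCA8siRNA, and 7.98% and 14.3% in the Huh7 libraries.

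CDK14, also known as PFTK1, had the largest change of the 10 genes. Its values were 8.34 RPKM in Huh1 NCsiRNA, 14.9 in Huh1 CDCA8siRNA, 5.26 in Huh7 NCsiRNA and 12.6 in Huh7 CDCA8siRNA, and again both CDCA8siRNA libraries lay above both controls. The ratio was 1.78 in Huh1 and 2.39 in Huh7, with log2 fold changes of 0.76 ± 0.07 and 1.11 ± 0.08 (counting SD). Of all features, 113 in Huh1 and 62 in Huh7 rose more. In limma the change was 0.94 (SE 0.12, 95% confidence interval 0.67 to 1.21, Benjamini-Hochberg adjusted p = 0.00289). CCNY, the gene of cyclin Y, the partner that brings CDK14 to the membrane, was at 23.2 and 21.7 RPKM in Huh1 and at 12.8 and 8.97 in Huh7, without passing the test (limma log2 change -0.28, SE 0.12, adjusted p = 0.166).

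CDK14 and CDK6, the 2 kinases that rose, are both on chromosome 7, and their surroundings were looked at after their values had been seen. In the order of the RefSeq genes of GRCh38.p14, 12 protein-coding genes lie between them. Of these, 10 could be fitted, and 0 passed in either direction (0 also at an unadjusted p under 0.05), with limma log2 changes from -0.15 for FZD1 to 0.22 for AKAP9 and a median of 0.07. Of the 5 genes on each outer side, 4 could be fitted and 1 passed. That gene was SAMD9, next to CDK6, which had 1.13 and 2.48 RPKM in Huh1 and 0.419 and 1.09 in Huh7 (limma log2 change 0.63, adjusted p = 0.0349). It passed the filter of 1 RPKM in Huh7 only through the CDCA8siRNA library, where it was the higher, so its call has no weight.

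**Figure D3:**
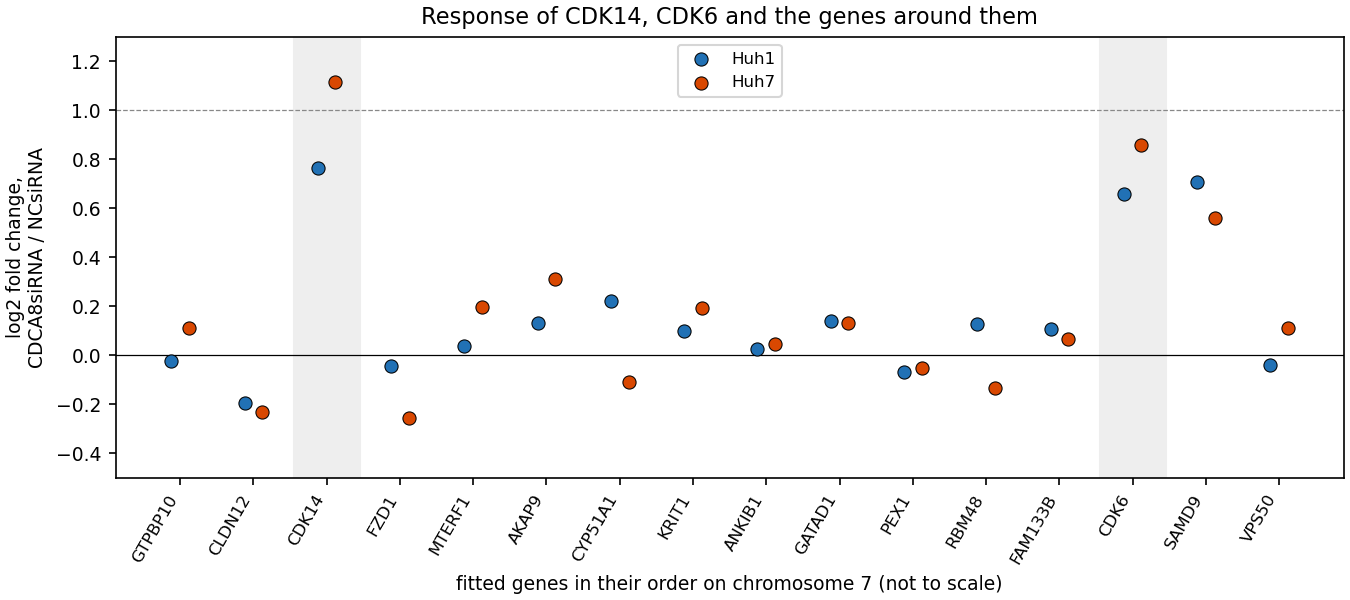
Log2 fold change with CDCA8siRNA in Huh1 (blue) and Huh7 (orange) for the fitted protein-coding genes around CDK14 and CDK6 (grey bands), in their order along chromosome 7; the horizontal axis is rank, not distance, and the dashed line marks 2-fold. The 10 genes between the bands lie between -0.26 and 0.31 in both cell lines, while CDK14, CDK6 and SAMD9 lie at or above 0.56.

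The kinases of S phase and mitosis did not pass the test. CDK1, the kinase of mitotic entry, had 31.2 RPKM in Huh1 NCsiRNA, 27.3 in Huh1 CDCA8siRNA, 45.1 in Huh7 NCsiRNA and 29.3 in Huh7 CDCA8siRNA. The libraries with CDCA8siRNA were the lower of each pair, at 87.5% and 65.1% of the control, and both lay below both controls. Log2 fold changes were -0.19 ± 0.07 in Huh1 and -0.60 ± 0.07 in Huh7 (counting SD). The limma estimate was -0.40 (SE 0.12, 95% confidence interval -0.65 to -0.14), and it did not pass (Benjamini-Hochberg adjusted p = 0.0603). It did pass with a minimum of 5 RPKM (limma adjusted p = 0.0469) and after quantile normalization (limma adjusted p = 0.0253).

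CDK2, the kinase of the G1 to S transition, was nearly level at 33.3, 31.6, 33.0 and 35.9 RPKM in the same order of libraries. Its log2 fold change was -0.07 ± 0.06 in Huh1 and 0.12 ± 0.06 in Huh7 (counting SD), with a limma estimate of 0.02 (SE 0.10, 95% confidence interval -0.20 to 0.24, adjusted p = 0.911). The ratio of CDK2 to CDK1 within a library was 1.07 and 1.16 in Huh1, but 0.733 and 1.23 in Huh7. By these values CDK1 was the higher of the pair only in Huh7 NCsiRNA, though which gene is higher depends on the transcript lengths used.

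Nor did the kinases that also serve transcription. CDK7, the catalytic subunit of the CDK-activating kinase, had 32.5 and 30.1 RPKM in Huh1 and 25.2 and 23.2 in Huh7, with a limma log2 change of -0.11 (SE 0.09, adjusted p = 0.502). Its partners CCNH and MNAT1, which complete the trimer, were at 115% and 113% of the control in Huh1 and at 121% and 122% in Huh7, without passing the test (limma adjusted p = 0.173 and 0.192). CDK8 had 10.9 and 12.5 RPKM in Huh1 and 9.45 and 12.1 in Huh7, higher with CDCA8siRNA in both cell lines by 0.18 ± 0.09 and 0.32 ± 0.09 on the log2 scale (counting SD), but its limma estimate of 0.25 (SE 0.11) did not pass (adjusted p = 0.176). Cyclin C, the partner of CDK8 encoded by CCNC, fell to 49.3% of the control in Huh1 (38.3 and 18.9 RPKM) and to 32.4% in Huh7 (56.8 and 18.4 RPKM; limma log2 change -1.28, SE 0.14, adjusted p = 0.00129). The Mediator subunits MED12 and MED13, which sit in the same module, did not pass (limma log2 change 0.32, adjusted p = 0.123, and 0.00, adjusted p = 0.989).

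**Figure D4:**
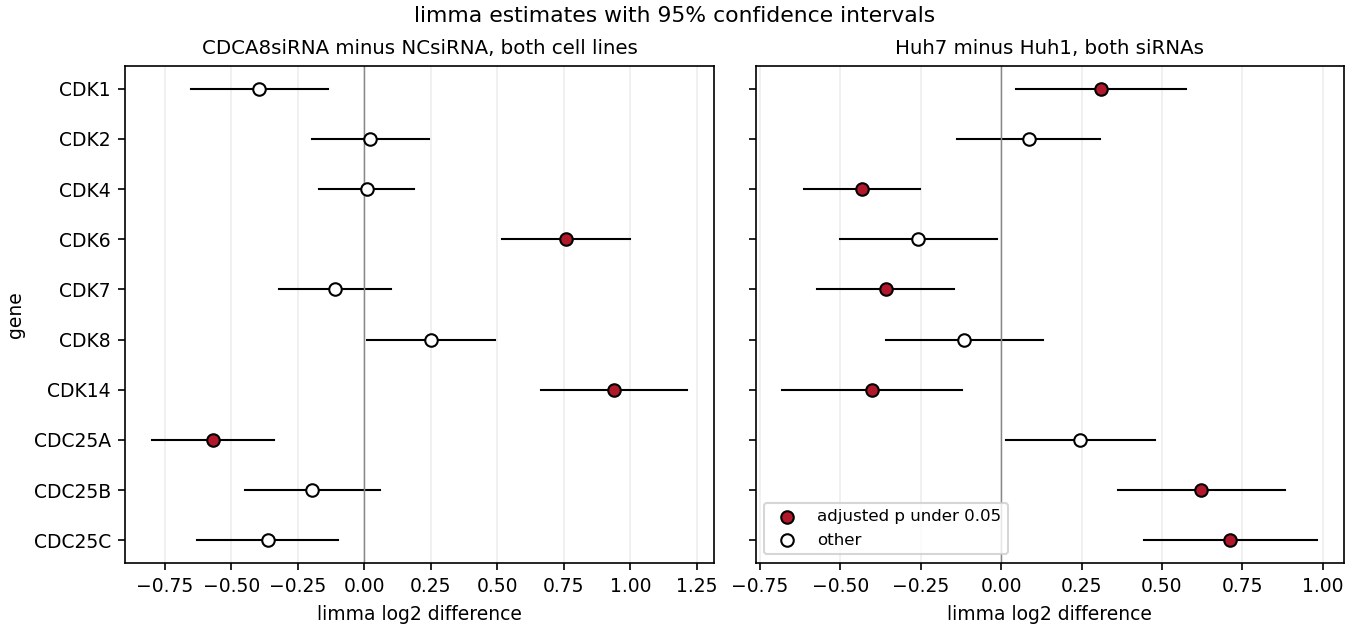
Limma log2 differences with 95% confidence intervals for the 10 genes, for CDCA8siRNA minus NCsiRNA over both cell lines (left) and Huh7 minus Huh1 over both siRNAs (right), with filled points where the adjusted p is under 0.05. CDK14, CDK6 and CDC25A are filled on the left, and CDK1, CDK4, CDK7, CDK14, CDC25B and CDC25C on the right.

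By sign, all 3 CDC25 phosphatases were lower with CDCA8siRNA in both cell lines, but by unequal amounts, and 1 of them passed the test. CDC25A, which activates CDK2 at the entry to S phase and acts in mitosis as well, had 20.3 RPKM in Huh1 NCsiRNA, 14.2 in Huh1 CDCA8siRNA, 25.7 in Huh7 NCsiRNA and 16.01 in Huh7 CDCA8siRNA. Both CDCA8siRNA libraries lay below both controls, at 69.9% and 62.4% of the control of their line. The log2 fold changes were -0.49 ± 0.07 in Huh1, where 256 features of 10940 fell further, and -0.65 ± 0.06 in Huh7, where 301 of 11565 did. In limma CDC25A fell by 0.57 on the log2 scale (SE 0.10, 95% confidence interval -0.80 to -0.34, Benjamini-Hochberg adjusted p = 0.0112).

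CDC25B, which is thought to start the activation of CDK1 at the centrosome, had 21.8 and 21.7 RPKM in Huh1 and 38.9 and 29.6 in Huh7. The log2 fold change was -0.01 ± 0.06 in Huh1 and -0.39 ± 0.06 in Huh7 (counting SD), so nearly all of its difference came from Huh7, and its limma estimate of -0.20 (SE 0.11) did not pass (adjusted p = 0.314). CDC25C, which completes the activation of CDK1 at mitosis, had 6.75 and 5.59 RPKM in Huh1 and 12.9 and 8.87 in Huh7. With 157 to 335 reads per library it had the fewest reads of the 10 genes in 3 of the 4 libraries, and its log2 fold changes of -0.23 ± 0.13 and -0.49 ± 0.11 had the widest counting SD. The limma estimate for CDC25C was -0.36 (SE 0.12, 95% confidence interval -0.63 to -0.10) and did not pass (adjusted p = 0.0851), except after quantile normalization (adjusted p = 0.0413).

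Summed over the family, CDC25 transcripts were at 48.8 RPKM in Huh1 NCsiRNA, 41.4 in Huh1 CDCA8siRNA, 77.5 in Huh7 NCsiRNA and 54.5 in Huh7 CDCA8siRNA. With CDCA8siRNA the share of CDC25A in the sum was smaller and that of CDC25B larger in both cell lines. CDC25A was 41.6% of it in Huh1 NCsiRNA and 34.2% in Huh1 CDCA8siRNA, and 33.1% and 29.4% in the Huh7 libraries. CDC25B was 44.6% and 52.3% in Huh1 and 50.2% and 54.3% in Huh7. The share of CDC25C stayed between 13.5% and 16.6%. These shares have no replicate and were not tested.

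**Figure D5:**
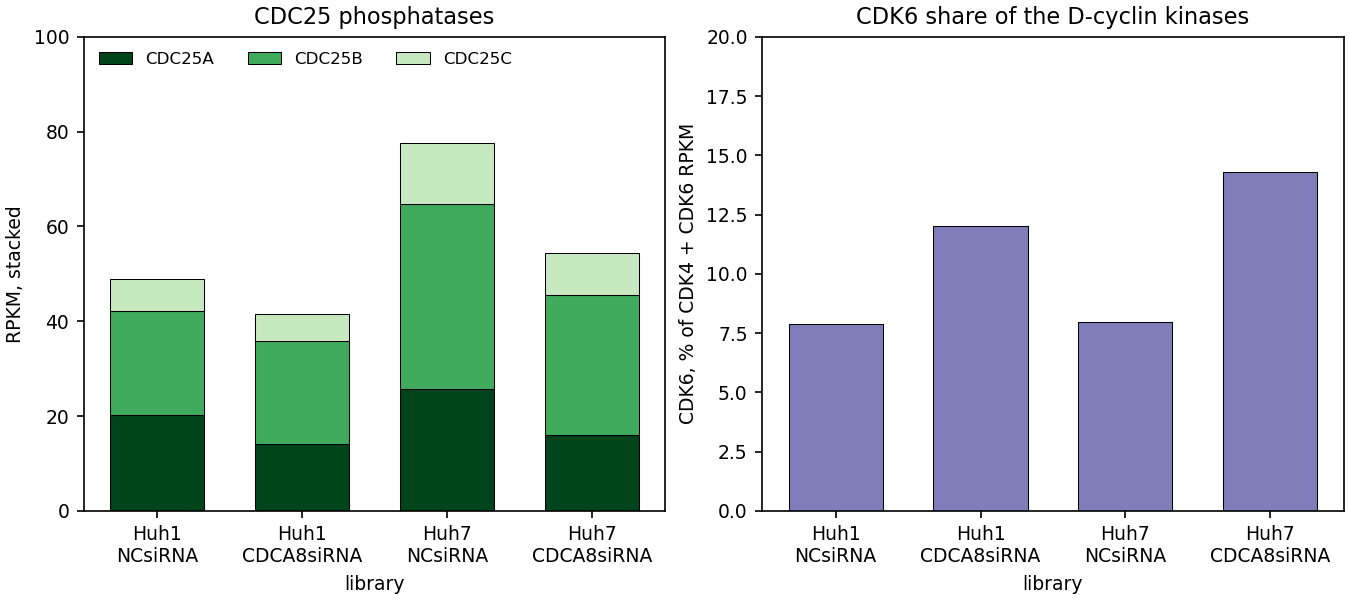
Left, RPKM of CDC25A, CDC25B and CDC25C stacked for each of the 4 libraries, with sums of 48.8, 41.4, 77.5 and 54.5. Right, CDK6 as a percent of the RPKM of CDK4 and CDK6 together, which is 7.89% and 7.98% in the NCsiRNA libraries and 12% and 14.3% in the CDCA8siRNA libraries.

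The genes lower in both cell lines include several that are transcribed in a cell cycle dependent way, and the stretches around their start sites were read after the values had been seen. RefSeq promoter windows of GRCh38.p14, from 250 bases before to 50 bases after each start, were found for 9 of the 10 genes (19 windows) and for 35116 starts in all. The cell cycle homology region, TTTGAA, bound by the MuvB core of the DREAM complex, was present in CDK1 and CDC25C and in 15.2% of all windows, counted on both strands. Preceded by a GCGG element at a gap of 4 bases, written GCGGNNNNTTTGAA, it was present in the same 2 genes, at an overlap with the first motif, and in 37 windows, 0.105% of all. TTTNNCGC, a form of the E2F site, was present in CDK1 and CDC25A and in 6.89% of windows, and CCAAT, the site of NF-Y, was present in CDK1 and all 3 CDC25 genes and in 34.6% of windows. A gene was counted if any of its windows held the motif, while the percentages are per single window. CDC25A had 1 window, CDK1 had 2, and CDC25B and CDC25C had 4 each, so genes and percentages are not like for like. The next 4 stretches are shown because they hold these letters in genes that were lower in both cell lines by sign. Of these genes only CDC25A passed the limma test, and CDC25B was at 99.5% of the control in Huh1. Each stretch is written 5′ to 3′ on the strand of its gene, with the motif in capitals. The first has its motif starting 21 bases before 1 start site of CDK1 at chr10:60778449-60778478 (plus strand). The second has it 38 before 1 start site of CDC25C at chr5:138331821-138331850 (minus strand). In another window of CDC25C the same element starts 35 bases after the start site. The third has it 44 before the start site of CDC25A at chr3:48188443-48188472 (minus strand). The last, a variant with a C in the middle (TTCGAA, 1.45% of windows), has it 38 before 1 start site of CDC25B at chr20:3796260-3796289 (plus strand).
CDK1, GCGGNNNNTTTGAA: cctttagcGCGGTGAGTTTGAAactgctcg
CDC25C, GCGGNNNNTTTGAA: ctgggctgGCGGAAGGTTTGAAtggtcaac
CDC25A, TTTNNCGC: ggtggattccgTTTGGCGCcaactaggaaa
CDC25B, TTCGAA: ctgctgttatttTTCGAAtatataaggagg

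These matches are descriptions of letters, and binding was not measured. Of the 18 fitted genes with GCGGNNNNTTTGAA, 1 passed as lower and 0 as higher, with a median limma log2 change of -0.11. Of the 1072 fitted genes with TTTGAA, 60 passed as lower and 72 as higher, with a median of 0.02, and of the 1050 with TTTNNCGC, 41 and 61 did, with a median of 0.02. For CCAAT it was 166 and 197 of 3410 (median 0.02), and for TTCGAA 6 and 13 of 183 (median 0.00). Over all features fitted, 4.21% passed as lower and 6.03% as higher. CDK4, CDK6, CDK7, CDK8 and CDK14 held none of the motifs searched in their windows. Of these, CDK7 was also lower in both cell lines by sign (log2 fold change -0.11 in each).

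The change with CDCA8siRNA was larger in Huh7 than in Huh1 for 9 of the 10 genes, all but CDK4. The SD of the log2 fold changes over all features was also larger in Huh7, at 0.35 against 0.26. The share of all features with the larger change in Huh7 was not counted, so the 9 of 10 cannot be called particular to these genes. The difference between the lines was -0.42 ± 0.10 for CDK1, -0.38 ± 0.09 for CDC25B and 0.35 ± 0.11 for CDK14 (Huh7 minus Huh1, counting SD). For CDK7, counted among the 9, it was -0.01 ± 0.13, within its counting SD. With 4 libraries no degree of freedom is left for an interaction, so whether the lines differed in response was not tested. CDCA8 was reduced further in Huh7 as well (14.3% of the control against 24.3%).

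Between the cell lines, irrespective of siRNA, levels of the 10 genes differed more often than with the siRNA. In limma over 12148 features with the siRNA as a covariate, 3 of the 10 genes were higher in Huh7 and 3 higher in Huh1 at a Benjamini-Hochberg adjusted p under 0.05, where 42.5% of all features were higher in Huh7 and 28.7% higher in Huh1. The 6 of 10 were thus no larger a share than among all features. The median over all features was 0.14 on the log2 scale towards Huh7, and 0.01 after quantile normalization, so small differences depend on the scaling. Here a line is represented by 2 cultures with different siRNAs.

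Higher in Huh7 were CDC25C, CDC25B and CDK1. CDC25C was 1.91-fold as high in Huh7 as in Huh1 with NCsiRNA and 1.59-fold with CDCA8siRNA (limma log2 difference 0.71, SE 0.12, adjusted p = 0.00062). CDC25B was 1.79-fold and 1.37-fold as high (0.62, SE 0.11, limma adjusted p = 0.00112). CDK1 was 1.45-fold as high with NCsiRNA but 1.08-fold with CDCA8siRNA (limma log2 difference 0.31, SE 0.12, adjusted p = 0.0388). The call of CDK1 was lost after upper quartile scaling (limma adjusted p = 0.0655), after quantile normalization (0.0902), without the mean-variance trend (0.0843), and without the filter or the covariate (0.28 in each). Those of CDC25C and CDC25B were lost only without the filter (limma adjusted p = 0.067 and 0.104).

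Higher in Huh1 were CDK4, CDK7 and CDK14. With NCsiRNA the level in Huh7 was 0.753 of that in Huh1 for CDK4, 0.775 for CDK7 and 0.631 for CDK14, and with CDCA8siRNA it was 0.725, 0.771 and 0.845. The limma log2 differences (Huh7 minus Huh1) were -0.43 (SE 0.08, adjusted p = 0.00111), -0.36 (SE 0.09, adjusted p = 0.00761) and -0.40 (SE 0.12, adjusted p = 0.0161). The call of CDK14 was lost without the filter (limma adjusted p = 0.175) and without the covariate (0.47). CDK4 and CDK7 kept theirs under every alternative. CDK6 (-0.26, SE 0.11, limma adjusted p = 0.057) and CDC25A (0.25, SE 0.10, limma adjusted p = 0.0556) missed the threshold, and CDK6 passed it after upper quartile scaling (limma adjusted p = 0.0299) and after quantile normalization (limma adjusted p = 0.0123). CDK8 (-0.12, SE 0.11) and CDK2 (0.09, SE 0.10) were further from it.

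The rest of the pathway was read from lists of genes drawn up with earlier results of these data known. Over all features fitted, limma passed 6.03% as higher and 4.21% as lower, and 26.0% had an unadjusted p under 0.05. The counts of each list are to be read beside these shares, and no list was tested as a set. Of the 13 genes on these lists that passed, 5 did so without the mean-variance trend of limma (CCNC, CCNE1, CDKN3, PLK1 and CDKN2B), and for the other 8 the adjusted p was then between 0.0505 and 0.131. Among 11 fitted cyclin-dependent kinases outside the set, limma passed 0 as higher and 1 as lower (0 and 2 at an unadjusted p under 0.05). That one was CDK10, a kinase of cyclin M, which fell to 77.2% of the control in Huh1 and 74.7% in Huh7 (limma log2 change -0.38, SE 0.10, adjusted p = 0.0440). CDK11A was among the 11 and shares reads with its near-identical copy CDK11B, so its value is uncertain. The median limma log2 change of the list was 0.06.

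Of 15 fitted partners of the kinases (cyclins, CKS proteins, MAT1 and the Mediator subunits), limma passed 0 as higher and 4 as lower (2 and 9 at an unadjusted p under 0.05), with a median of -0.21. Beside cyclin C, cyclin E1, the partner of CDK2 encoded by CCNE1, fell to 62.5% of the control in Huh1 and 55.6% in Huh7 (limma log2 change -0.65, SE 0.12, adjusted p = 0.0125). The small CKS proteins, which dock on CDK1 and CDK2, fell slightly, CKS1B by 0.32 and CKS2 by 0.29 on the log2 scale (limma adjusted p = 0.0395 and 0.0463). The mitotic cyclins CCNB1, CCNB2 and CCNA2 were lower in each cell line, with limma log2 changes of -0.21, -0.28 and -0.21 that did not pass (adjusted p = 0.143, 0.110 and 0.179). CCND1, the D cyclin with the highest level here, was at 133% of the control in Huh1 and 78.5% in Huh7 (limma adjusted p = 0.930).

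Among the kinases and phosphatases that act on the phosphates of the CDKs themselves, WEE1 and PKMYT1, which add the phosphates that CDC25 removes, did not pass (limma log2 change -0.08, adjusted p = 0.666, and 0.16, adjusted p = 0.366). CDKN3, a phosphatase that takes off the activating phosphate, fell to 70.6% of the control in Huh1 and 74.8% in Huh7 (limma adjusted p = 0.0143). PPM1A, a phosphatase with the same reported target, fell to 76.7% and 62.1% of the control (limma adjusted p = 0.0411). In all, 2 of the 5 genes of this list passed as lower and 0 as higher in limma (2 and 0 at an unadjusted p under 0.05), with a median of -0.08.

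Of 16 genes that act on CDC25 proteins, 2 passed in each direction in limma (4 higher and 3 lower at an unadjusted p under 0.05), with a median of 0.03. PLK1, which phosphorylates CDC25C and WEE1 at mitotic entry, fell to 71.2% of the control in Huh1 and 64.5% in Huh7 (limma log2 change -0.55, SE 0.09, adjusted p = 0.00938), and BORA, which lets Aurora A activate PLK1, fell to 71.8% and 74.3% of the control (limma adjusted p = 0.0449). The 14-3-3 proteins, which bind phosphorylated CDC25 and hold it back, include the 2 that rose, YWHAG by 0.37 and YWHAH by 0.33 on the log2 scale (limma adjusted p = 0.0223 and 0.0331). CHEK1 and CHEK2, the checkpoint kinases that mark CDC25 for 14-3-3 binding and degradation, did not pass (limma adjusted p = 0.561 and 0.349).

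Among 6 fitted CDK inhibitors, 1 passed as higher and 1 as lower in limma (2 and 1 at an unadjusted p under 0.05), with a median of -0.12. CDKN2B (p15), an inhibitor of CDK4 and CDK6, rose to 216% of the control in Huh1 and 268% in Huh7 (limma log2 change 1.15, SE 0.11, adjusted p = 0.0012). CDKN2A, its neighbour, which encodes p16 and ARF, fell to 77.2% and 62.5% of the control (limma log2 change -0.48, SE 0.12, adjusted p = 0.0318). CDKN1A (p21) was at 61.8% of the control in Huh1 and 154% in Huh7, opposite directions, and did not pass (limma adjusted p = 0.870). Of the 6 pocket protein and E2F genes, RB1, RBL1, RBL2, E2F1, E2F2 and E2F3, limma passed 0 at an adjusted p under 0.05 and 2 at an unadjusted p under 0.05, with a median log2 change of -0.10. At the same time 7 of the 12 hepatocyte markers passed as lower in limma (5 without the mean-variance trend), ALB and HNF4A among them, and 0 as higher. APOA2 was at 125% of the control in Huh1 and 100% in Huh7, and TTR at 88.1% and 165%, without passing (limma adjusted p = 0.268 and 0.355). The summed level of the 12 was 6320 and 5367 RPKM in Huh1 and 3514 and 2522 in Huh7. Of these sums ALB alone held 3447 and 2684 RPKM in Huh1 and 1166 and 721 in Huh7. The part of these markers in the changes of the kinases and phosphatases was not tested.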

How the data were processed

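Total RNA of Huh1 and Huh7 cells had been taken with Trizol, made into TruSeq libraries and sequenced (1 library per cell line and siRNA). The authors deposited 1 value per RefSeq transcript without a unit, which behaves as RPKM, reads divided by transcript length and by library depth (low values times length fall on multiples of 1 constant per library). The submitters' processing notes name CASAVA 1.8.2, TopHat2 2.0.9 and hg19, with no counter or filter. The constants correspond to 13384836, 13193713, 12197606 and 12266642 reads (Huh1 NCsiRNA, Huh1 CDCA8siRNA, Huh7 NCsiRNA, Huh7 CDCA8siRNA).

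Differences of log2(RPKM + 1) were taken within a cell line over features that reached 1 RPKM in either library of that line. There was no replicate, so a 2-fold change was the call. limma 3.58.1 in R 4.3.3 (lmFit, eBayes with trend) was fitted to all 4 libraries with cell line and siRNA as terms. The siRNA coefficient used features with at least 1 RPKM in each cell line and the line coefficient those with 1 RPKM in any library, with Benjamini-Hochberg adjustment over all features of a fit. With no replicates, p-values rest on how far the cell lines (or siRNAs) responded alike and on variance borrowed from the other features. The fit for the siRNA had 1 residual degree of freedom and borrowed 8.29. Variation between cultures is not covered.

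Counting SDs came from RPKM, the library constant and GENCODE 29 transcript lengths, matched by RefSeq identifier for 9 of the 10 genes and by symbol (longest transcript) for CDK1. Where the authors used other lengths, these SDs are off. Promoter sequences and gene order came from RefSeq tables of GRCh38.p14, and no coordinates were converted. Python 3.11.15, numpy 2.4.6 and pandas 2.3.3 did the rest.

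The members and gene lists were chosen with earlier results of these data known. All 10 members and CDCA8 are named, and from each list at most 6 genes by smallest p among those with adjusted p under 0.05. Those that did not pass, the motif letters, and the genes between CDK14 and CDK6 were chosen after values had been seen. Alternatives were a pseudocount of 0.1, no filter, a minimum of 5 RPKM, upper quartile scaling, quantile normalization, no trend and no covariate.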

Additional observations from a re-analysis of the deposited data

Results flagged for a closer look

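CDK2 and CDK4 stood out because their changes with CDCA8siRNA had opposite signs in the cell lines. For CDK2 the log2 change was -0.07 in Huh1 but 0.12 in Huh7, a difference of 0.194 (Huh7 minus Huh1) with a counting SD of 0.09. For CDK4 it was 0.03 in Huh1 but -0.02 in Huh7, a difference of -0.053 with a counting SD of 0.05. With 1 library per cell line and siRNA, neither difference was tested.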

How the results depend on the processing

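Within a cell line, the members' log2 fold changes moved by less than the 95% counting interval in all 60 values under another pseudocount or scaling (the filters do not act on them), and 0 members in Huh1 and 1 in Huh7 reached 2-fold under the alternatives run there. The background counts of 2-fold changes moved with the pseudocount. With 0.1 RPKM, 107 features were higher and 57 lower in Huh1 (35 and 19 with 1 RPKM), and 269 were higher and 153 lower in Huh7 (101 and 81). Quantile normalization left 22 higher in Huh1.

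The limma calls for CDCA8siRNA depended on the filter and the covariate. Of the 10 members, 3 passed, and 5 did after quantile normalization. Without the filter 0 members and 0 of all features passed (1061 with it), although 3 members and 2050 features had an unadjusted p under 0.05 there. Without the cell line as a covariate 0 members and 0 features passed, with 2 and 89 at an unadjusted p under 0.05, because the difference between the lines then counts as error. For Huh7 against Huh1, 6 members passed, and 2 of them without the filter, where 5433 of all features did (8654 with it). The cause of the loss without the filter was not tested. The line difference of CDK2 changed from 0.09 to -0.00 after quantile normalization. Of the other values of single members, 61 of 70 for the siRNA and 58 of 70 for the line kept direction and side of the threshold. The 61 include members uncalled in the main fit, taken without the filter or without the covariate. With 0 features called there, those values could not cross the threshold and tell nothing of stability. Of the counts over gene lists, 79 of 96 stayed within 1.5 times and 17 moved. The 96 leave out the fit without the covariate. The 79 include counts that were 0 in the main fit and under every alternative, and these say nothing about stability. Of the 13 list genes called, 0 were called without the filter or without the covariate and 5 without the mean-variance trend, where CDK10, CKS1B, CKS2, PPM1A, BORA, YWHAG, YWHAH and CDKN2A were lost. Upper quartile scaling lost CKS2 and BORA, and quantile normalization CKS2.

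No paired analysis by replicate was possible because there was 1 library per condition, and the cell line term already pairs each CDCA8siRNA library with its control. The limits are 1 library per condition, 1 siRNA, and p-values that cover no variation between cultures.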
